A study of Mus musculus with 12 samples.

Results

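The 10 genes described here encode the enzymes that start, lengthen and sulfate chondroitin sulfate chains: Csgalnact1 and Csgalnact2, Chsy1, Chsy3, Chpf and Chpf2, Chst11 and Chst12, Chst3, and Chst15. They were taken by symbol from a table of 15397 genes, and all 10 were present. The table holds RNA-seq values from the striatum of 12 C57BL/6 mice in 4 groups of 3: wild-type mice on vehicle, wild-type mice on PLX3397, R6/2 mice on vehicle and R6/2 mice on PLX3397. PLX3397 inhibits Csf1r, the receptor that microglia need to survive, and was mixed into the chow at 275 ppm while the mice were between 7 and 11 weeks old, the age span given for all 4 groups. R6/2 mice express a fragment of mutant human huntingtin with an expanded repeat from a transgene that is active in many cell types, and their disease progresses fast, which has made them a common animal model of Huntington's disease. The title of the study names microglial depletion, the extracellular matrix and perineuronal nets, and these 10 genes make the sugar chains of that matrix.

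Chondroitin sulfate is a long unbranched chain of alternating glucuronic acid and N-acetylgalactosamine, attached to a core protein through a short linkage of other sugars. Csgalnact1 and Csgalnact2 add the N-acetylgalactosamine that commits the linkage to chondroitin, and Chsy1, Chsy3, Chpf and Chpf2 work in pairs to lengthen the chain. Chst11 and Chst12 sulfate position 4 of N-acetylgalactosamine, Chst3 sulfates position 6, and Chst15 adds a sulfate at position 6 to units already sulfated at position 4. In the brain these chains are carried by aggrecan, brevican, neurocan and versican, which are built into perineuronal nets, and by phosphacan.

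Promoter sequences are shown for Chpf, Chst12 and Csgalnact2, because these were the 3 genes that passed the test when wild-type mice received PLX3397. They come from RefSeq on GRCm38.p6, whose promoter table held 8 of the 10 genes (not Csgalnact1 or Chsy3). Each line gives the 250 bases before the start site, 5′ to 3′ on the gene's own strand, at chr1:75479472-75479721 (minus strand) for Chpf, chr5:140505359-140505608 (plus strand) for Chst12 and chr6:118139141-118139390 (minus strand) for Csgalnact2. Capitals mark the GC box GGGCGG, which is bound by Sp1-type factors, and the cyclic AMP response element TGACGTCA.
Chpf: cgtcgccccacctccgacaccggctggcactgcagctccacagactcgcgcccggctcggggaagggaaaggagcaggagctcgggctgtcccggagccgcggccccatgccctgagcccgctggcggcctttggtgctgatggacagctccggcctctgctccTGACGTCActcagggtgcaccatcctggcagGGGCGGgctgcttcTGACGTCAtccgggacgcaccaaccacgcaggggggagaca
Chst12: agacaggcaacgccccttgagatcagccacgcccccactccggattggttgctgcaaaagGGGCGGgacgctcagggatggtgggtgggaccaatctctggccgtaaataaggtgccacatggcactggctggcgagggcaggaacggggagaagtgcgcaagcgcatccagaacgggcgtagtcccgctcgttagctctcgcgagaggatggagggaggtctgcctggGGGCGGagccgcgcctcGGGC
Csgalnact2: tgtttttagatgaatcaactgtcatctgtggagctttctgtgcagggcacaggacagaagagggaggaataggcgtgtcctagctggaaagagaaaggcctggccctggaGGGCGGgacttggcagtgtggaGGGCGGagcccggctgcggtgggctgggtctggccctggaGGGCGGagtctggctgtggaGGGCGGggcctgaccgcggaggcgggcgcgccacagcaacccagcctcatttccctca

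The search covered both strands of the full 300-base windows, which run 50 bases past the start. Chpf carried 2 cyclic AMP response elements, 86 and 41 bases upstream, a full match present in 1.79% of the 32851 promoters of the table. It also held 2 GC boxes (GGGCGG or CCGCCC), 55 bases upstream and 8 bases downstream. Chst12 held 3 GC boxes, of which the last begins 4 bases before the start and is printed only up to it. It also held 2 CCAAT boxes (CCAAT or ATTGG), 207 and 160 bases upstream. The start site used for Chst12 lies inside the gene's RefSeq span, which begins at chr5:140505569. The last printed bases, with the GC boxes 21 and 4 bases upstream, therefore fall within that span. Csgalnact2 held 4 GC boxes between 140 and 58 bases upstream, and a second start site listed for the gene had none. GC boxes occur in 35.7% and CCAAT boxes in 37.4% of all promoters of this length, and no TATA box (TATAAA, present in 13.6%) was found in any of the 8 genes with a sequence. GC content was 71.7% for Chpf, 65% for Chst12 and 67% for Csgalnact2, beside a median of 52.7% over all promoters. The promoters of the genes that rose and of the gene that fell were thus all rich in GC. So were those of uncalled members, at 71% for Chst11, 70% for Chst3, 65.3% for Chsy1 and 60.3% for Chpf2. The start sites of Chst15 had 55% and 64.3%. The matches describe these letters only.

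Several features of the libraries bear on the values that follow. The deposited values were log2 CPM (reads of a gene per 1e+06 reads of its library), from 18902120 to 24293208 gene-assigned reads per mouse. Csf1r fell from 6.66 ± 0.07 to 0.71 ± 1.52 log2 CPM in wild type and from 6.84 ± 0.28 to 0.12 ± 1.13 in R6/2 (SD, n = 3 each). The summed level of 12 microglial genes was 428 to 583 CPM in the vehicle libraries and 39.4 to 63.1 CPM in the PLX3397 libraries, and all 12 were detected in every group. R6/2 PLX3397 mice 1 and 2 had 76.1 and 278 CPM of 6 cortical neuron genes, against 992 to 2492 CPM in the other libraries. R6/2 vehicle mouse 1 (4525 CPM) and wild-type PLX3397 mouse 1 (1036 CPM) stood above the other libraries (44.4 to 106 CPM) in 4 choroid plexus genes. The library labels carry no batch. Over the 14305 genes with a known transcript, GC content and the PLX3397 difference correlated at a Spearman's rho of 0.548 in wild type and of -0.487 in R6/2 (genes are no replicates). Values without these libraries are therefore given for Chpf, Chst12, Csgalnact2, Chst15, Chst3 and Chst11. Values after the trend with GC content and length was taken out of each library (trend removal) are given for many of the named genes. In bulk tissue, fewer cells of a type and less RNA per cell cannot be told apart.

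Per kilobase of exon (all exons of a gene in the basic annotation, overlaps counted once), Chpf was the most abundant of the 10 genes and Chst3 the least in all 4 groups. In wild-type mice on vehicle the mean level in CPM per kilobase was 21.1 ± 2.79 for Chpf, 18.2 ± 3.95 for Chst11, 13.7 ± 3.18 for Chst15 and 9.78 ± 1.68 for Chpf2 (SD, n = 3), and the ranges of neighbours in this order overlapped. Below a gap came Csgalnact2 (6.97 ± 0.84) and Chst12 (6.65 ± 0.79), whose ranges also overlapped. After a further gap the levels were 4.65 ± 0.91 for Csgalnact1 and 4.17 ± 0.27 for Chsy1, which overlapped, then 3.81 ± 0.10 for Chsy3 and 1.23 ± 0.27 for Chst3, each below its neighbour without overlap. Thus a chain-lengthening subunit and the sulfotransferases Chst11 and Chst15 led the order, and the 6-O-sulfotransferase Chst3 was last. On PLX3397 in wild type, Chst12 stood at 11.0 ± 1.53 CPM per kilobase and Csgalnact2 at 4.14 ± 0.87, and their ranges no longer overlapped. Reads per library ran from 63 for Chst3 to 3061 for Chst11.

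**Figure D1:**
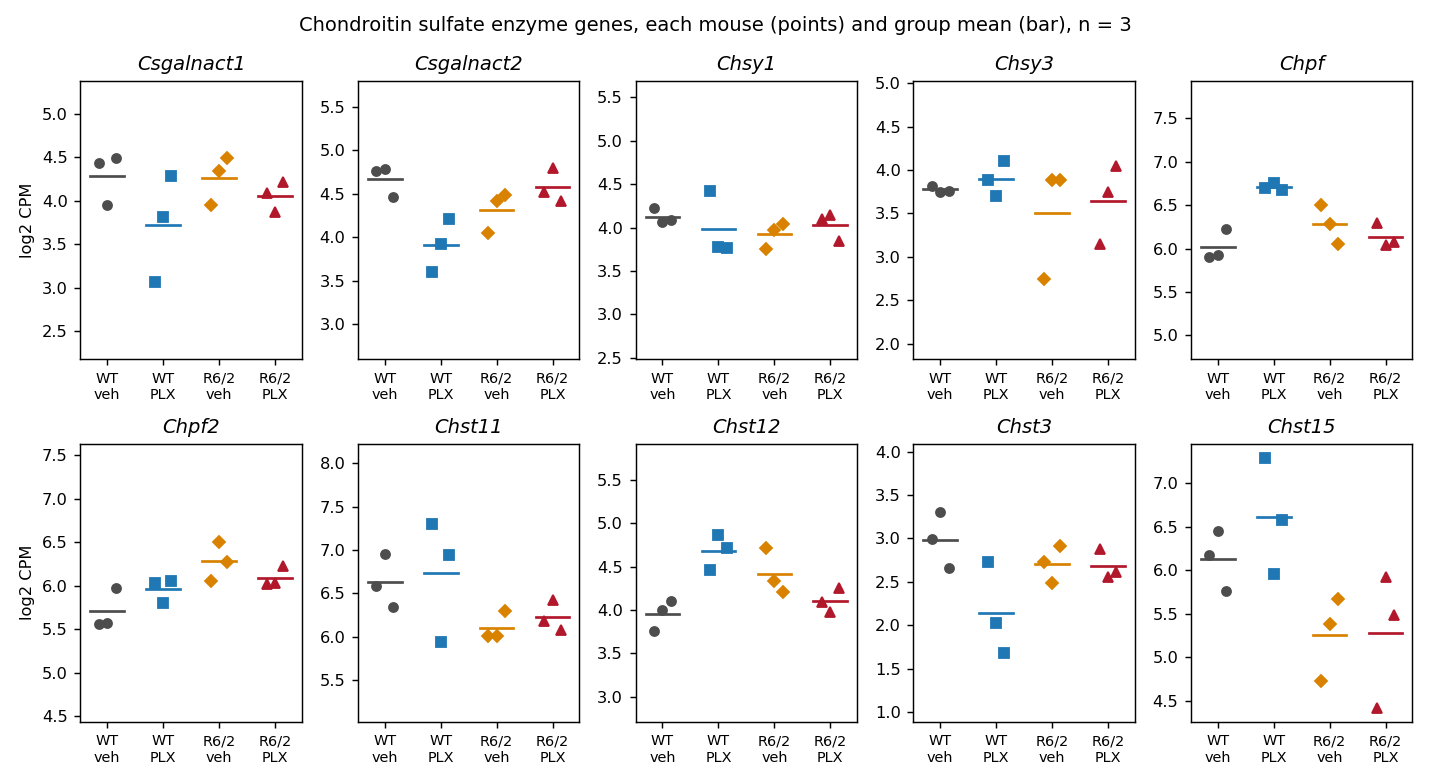
Level in log2 CPM of each of the 10 genes in every mouse (points) with the group mean (bar), n = 3 per group; WT is wild type, veh is vehicle, PLX is PLX3397, and every panel spans the same number of log2 units. Chpf and Chst12 are higher and Csgalnact2 is lower in the 3 wild-type PLX3397 mice than in all 3 wild-type vehicle mice, while the R6/2 PLX3397 mice overlap the R6/2 vehicle mice in every panel.

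For PLX3397 in wild-type mice, Chpf and Chst12 passed the test as higher and Csgalnact2 as lower. No gene of the 10 passed the test for PLX3397 in R6/2 mice. A gene is called where limma's p, adjusted by Benjamini-Hochberg over all 15397 genes, was under 0.05. In wild type 3 of 10 were called and 3 did not overlap between groups, where 14.2% of all genes were called (5.93% higher, 8.3% lower) and 36.1% did not overlap. None of the 3 stayed called without wild-type vehicle mouse 1 or without mouse 2, and after trend removal only Chpf did. The median difference of the 10 genes was 0.11 on the log2 scale and that of all genes 0.00. In R6/2, 0 of 10 were called by limma, 0 had an unadjusted p under 0.05, limma-voom called 0 and none separated the groups, where 1.1% of all genes were called and 24.1% did not overlap. The median difference was -0.00 for the 10 genes and -0.01 for all genes. The difference between the genotypes in the PLX3397 change, tested as an interaction, was called for the same 3 genes, where 17% of all genes were called (9.29% higher, 7.71% lower).

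Without PLX3397, none of the 10 genes passed the test between R6/2 and wild-type mice. On vehicle, 0 of 10 were called by limma, 2 had an unadjusted p under 0.05 (Chpf2 and Chst12), and limma-voom called 0, where 2.11% of all genes were called. The groups did not overlap for 5 of 10 genes (Chpf2 and Chst12 higher in R6/2, Chsy1, Chst11 and Chst15 lower), where 33.5% of all genes did not overlap. The median difference was -0.24 for the 10 genes and 0.01 for all genes on the log2 scale. With both genotypes on PLX3397, 4 of 10 were called and did not overlap, Chpf, Chst12 and Chst15 lower and Csgalnact2 higher in R6/2, where 35% of all genes were called (17.1% higher, 17.9% lower) and 46.8% did not overlap, so the share of the 10 was close to that of all genes. The wild-type PLX3397 mice enter both this comparison and the PLX3397 comparison in wild type. Between R6/2 mice on PLX3397 and wild-type mice on vehicle, 0 of 10 were called by limma, 1 had an unadjusted p under 0.05 (Chpf2), limma-voom called 0, and only Chpf2 did not overlap, where 4.56% of all genes were called and 32% did not overlap.

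**Figure D2:**
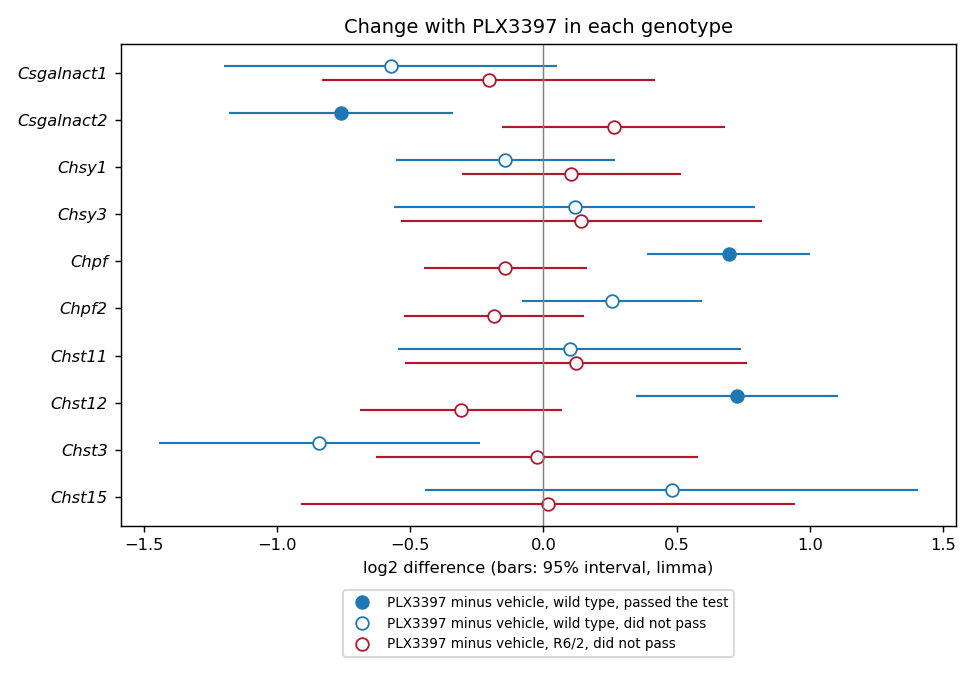
Log2 difference between PLX3397 and vehicle for each of the 10 genes in wild type (blue) and R6/2 (red), with 95% intervals from limma; filled points passed the test and open points did not. Chpf (0.70) and Chst12 (0.73) lie to the right and Csgalnact2 (-0.76) to the left in wild type, and all 10 intervals in R6/2 include 0.

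Of the chain-starting enzymes, Csgalnact2 (NCBI gene 78752; GRCm38 chr6:118107452-118139140, protein coding) fell with PLX3397 in wild type and Csgalnact1 did not pass the test. Csgalnact2 measured 4.77, 4.78 and 4.46 log2 CPM in the wild-type vehicle mice and 3.60, 3.92 and 4.21 in the wild-type PLX3397 mice. It measured 4.05, 4.42 and 4.48 in the R6/2 vehicle mice and 4.52, 4.80 and 4.42 in the R6/2 PLX3397 mice. All 3 wild-type PLX3397 mice lay below every wild-type vehicle mouse and every R6/2 PLX3397 mouse. The fall in wild type was 1.69-fold, a log2 difference of -0.76 ± 0.19 (SE; limma adjusted p = 0.0283). In R6/2 the difference was 0.26 (95% interval -0.16 to 0.68; adjusted p = 0.546), and the interaction was 1.02 ± 0.27 (adjusted p = 0.0305). With both genotypes on PLX3397, R6/2 mice were higher by 0.67 ± 0.19 (adjusted p = 0.0207).

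The wild-type call for Csgalnact2 was lost without wild-type vehicle mouse 1 (adjusted p = 0.110) or 2 (0.109) and without wild-type PLX3397 mouse 1 (0.0506) or 2 (0.0608), and after trend removal the difference was -0.06 (limma adjusted p = 0.823). The R6/2 against wild-type call on PLX3397 was lost without wild-type PLX3397 mouse 1 (0.0548) or R6/2 PLX3397 mouse 2 (0.0811), and after the trend was removed it was 0.07 (0.743). The interaction was lost without wild-type vehicle mouse 1 (0.0801) or 2 (0.0762), R6/2 vehicle mouse 1 (0.0655), or R6/2 PLX3397 mouse 1 (0.0632) or 2 (0.0778), and trend removal turned its direction, to -0.085 (0.838).

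Csgalnact1 (gene 234356; chr8:68356781-68735621, protein coding) ranged from 3.95 to 4.49 log2 CPM in wild-type vehicle mice, 3.06 to 4.28 in wild-type PLX3397 mice, 3.96 to 4.49 in R6/2 vehicle mice and 3.87 to 4.22 in R6/2 PLX3397 mice. The groups overlapped in every comparison. In wild type the PLX3397 difference was -0.57 ± 0.28 (limma adjusted p = 0.180; 95% interval -1.20 to 0.05), and in R6/2 it was -0.21 (-0.83 to 0.42).

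Of the 4 chain-lengthening subunits, Chpf rose with PLX3397 in wild type and Chpf2, Chsy1 and Chsy3 did not pass the test. Chpf, the chondroitin polymerizing factor that pairs with a chondroitin synthase (gene 74241; chr1:75474569-75479471, protein coding), measured 5.90, 5.92 and 6.23 log2 CPM in wild-type vehicle mice and 6.70, 6.76 and 6.67 in wild-type PLX3397 mice. It measured 6.50, 6.28 and 6.05 in R6/2 vehicle mice and 6.29, 6.05 and 6.07 in R6/2 PLX3397 mice. The 3 wild-type PLX3397 mice were the highest of all 12 and lay close together. The rise in wild type was 1.62-fold, a log2 difference of 0.70 ± 0.14 (limma adjusted p = 0.0140). In R6/2 the difference was -0.14 (95% interval -0.45 to 0.16; adjusted p = 0.655), and the interaction was -0.84 ± 0.20 (adjusted p = 0.0219). With both genotypes on PLX3397, R6/2 mice were lower by a log2 difference of -0.57 ± 0.14 (adjusted p = 0.0104), and on vehicle R6/2 minus wild type was 0.26 ± 0.14 (adjusted p = 0.278).

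The rise of Chpf was not called without wild-type vehicle mouse 1 (limma adjusted p = 0.0712) or 2 (0.0667), and it was 0.45 with the GC and length trend removed, still called (0.0468). The interaction was lost without wild-type vehicle mouse 1 (0.0634) or 2 (0.0598) or R6/2 PLX3397 mouse 2 (0.0596), and trend removal brought it to -0.34 (0.268). The difference between genotypes on PLX3397 held without any single mouse, but trend removal brought it to -0.09 (0.597).

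Chpf2, the related subunit (gene 100910; chr5:24586744-24594398, protein coding), had the smallest p of the 10 genes between the genotypes on vehicle, and it did not pass the test. It measured 5.56, 5.57 and 5.98 log2 CPM in wild-type vehicle mice and 6.06, 6.50 and 6.28 in R6/2 vehicle mice. Those groups did not overlap. It measured 6.03, 5.80 and 6.05 in wild-type PLX3397 mice and 6.02, 6.03 and 6.22 in R6/2 PLX3397 mice, which did overlap. R6/2 minus wild type on vehicle was 0.57 ± 0.15 (limma adjusted p = 0.0733), and R6/2 on PLX3397 minus wild-type vehicle was 0.39 ± 0.15 (adjusted p = 0.181). The vehicle difference passed the test without wild-type vehicle mouse 3 (0.71; adjusted p = 0.0406), and both passed after trend removal, at 0.61 (0.0281) and 0.53 (0.0248). The Chpf2 locus overlaps Smarcd3, a gene also in the table, and as the sources used here do not say whether counting used strand, reads in the overlap cannot be assigned between them.

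Chsy1 and Chsy3, the synthases that carry both transferase activities, showed no called difference in any of the 6 comparisons. Chsy1 (gene 269941; chr7:66109492-66173798, protein coding) ranged from 3.76 to 4.42 log2 CPM over the 12 mice. Its PLX3397 difference was -0.14 in wild type (95% interval -0.55 to 0.27) and 0.11 in R6/2 (-0.31 to 0.52). Chsy3 (gene 78923; chr18:59175340-59411336, protein coding) lay between 3.70 and 4.10 in 10 mice, and was lower in R6/2 vehicle mouse 1 (2.75) and R6/2 PLX3397 mouse 1 (3.15). R6/2 minus wild type on vehicle was -0.27 for Chsy3 (95% interval -0.95 to 0.40).

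Of the 4-O-sulfotransferases, Chst12 rose with PLX3397 in wild type and Chst11 did not pass the test. Chst12 (gene 59031; chr5:140505569-140525238, protein coding) measured 3.76, 4.003 and 4.10 log2 CPM in wild-type vehicle mice and 4.46, 4.87 and 4.72 in wild-type PLX3397 mice. It measured 4.71, 4.34 and 4.21 in R6/2 vehicle mice and 4.09, 3.98 and 4.25 in R6/2 PLX3397 mice. All 3 wild-type PLX3397 mice lay above every wild-type vehicle mouse and every R6/2 PLX3397 mouse, and the R6/2 vehicle mice also lay above the wild-type vehicle mice. The rise in wild type was 1.65-fold, a log2 difference of 0.73 ± 0.17 (limma adjusted p = 0.0234). In R6/2 the difference was -0.31 (95% interval -0.69 to 0.07; adjusted p = 0.453), and the interaction was -1.04 ± 0.24 (adjusted p = 0.0220). With both genotypes on PLX3397, R6/2 minus wild type was -0.57 ± 0.17 (adjusted p = 0.0255), and on vehicle it was 0.46 ± 0.17 (adjusted p = 0.152).

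The wild-type call for Chst12 was lost without wild-type vehicle mouse 1 (limma adjusted p = 0.106) or 2 (0.0781) and without wild-type PLX3397 mouse 2 (0.0646) or 3 (0.0505), and the difference was 0.48 with the GC and length trend removed (0.0532). The call between genotypes on PLX3397 was lost without wild-type PLX3397 mouse 2 (0.0788) or 3 (0.0611) or R6/2 PLX3397 mouse 1 (0.0687) or 2 (0.0882), and trend removal brought the difference to -0.12 (0.547). The interaction was lost without wild-type vehicle mouse 1 (0.0632) or 2 (0.0534) or R6/2 PLX3397 mouse 1 (0.0536) or 2 (0.0596), and trend removal brought it to -0.52 (0.144).

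Chst11, the more abundant 4-O-sulfotransferase (gene 58250; chr10:82984440-83195904, protein coding), varied most among the wild-type PLX3397 mice, at 7.30, 5.94 and 6.94 log2 CPM. It measured 6.58, 6.96 and 6.35 in wild-type vehicle mice, 6.01, 6.01 and 6.30 in R6/2 vehicle mice and 6.19, 6.42 and 6.07 in R6/2 PLX3397 mice. On vehicle the R6/2 mice lay below all wild-type mice, with a log2 difference of -0.53 ± 0.29 that did not pass the test (limma adjusted p = 0.302). With both genotypes on PLX3397 the difference was -0.50 ± 0.29 (adjusted p = 0.198). It passed without wild-type PLX3397 mouse 2, at -0.90 (adjusted p = 0.0108), and after trend removal, at -0.77 (0.0323). Without the 2 libraries highest in choroid plexus genes it was -0.21 (limma adjusted p = 0.572). PLX3397 minus vehicle was 0.10 in wild type (95% interval -0.54 to 0.74) and 0.12 in R6/2 (-0.52 to 0.77).

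Chst3, the 6-O-sulfotransferase (gene 53374; chr10:60181527-60222114, protein coding), was lower in wild-type PLX3397 mice without passing the test. It measured 3.00, 3.30 and 2.66 log2 CPM in wild-type vehicle mice and 2.73, 2.03 and 1.68 in wild-type PLX3397 mice. Mouse 1 on PLX3397 lay inside the vehicle range and the other 2 lay below it. The R6/2 mice measured 2.73, 2.49 and 2.91 on vehicle and 2.88, 2.56 and 2.62 on PLX3397, with full overlap. PLX3397 minus vehicle was -0.84 ± 0.27 in wild type (limma adjusted p = 0.0623) and -0.03 in R6/2 (95% interval -0.63 to 0.58), and the interaction was 0.82 ± 0.39 (adjusted p = 0.155). Without wild-type PLX3397 mouse 1 the wild-type difference was called, at -1.13 (adjusted p = 0.0194), as were the difference between genotypes on PLX3397 (0.83; 0.0239) and the interaction (1.11; 0.0362).

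The balance between 4-O and 6-O enzymes can be read within each mouse as the difference between their log2 values. Chst12 minus Chst3 was 0.76, 0.70 and 1.44 in wild-type vehicle mice and 1.73, 2.83 and 3.04 in wild-type PLX3397 mice, which did not overlap. In R6/2 it was 1.98, 1.85 and 1.30 on vehicle and 1.22, 1.42 and 1.64 on PLX3397, which did. Chst11 minus Chst3 was 3.59, 3.66 and 3.69 in wild-type vehicle mice and 4.57, 3.91 and 5.26 in wild-type PLX3397 mice, again without overlap. In R6/2 it was 3.28, 3.52 and 3.38 on vehicle and 3.31, 3.86 and 3.46 on PLX3397, which overlapped. Both measures were thus higher in every treated wild-type mouse than in every untreated one; each combines genes whose own values are given above, and no separate test was made. These are RNA levels, and the sulfation of the chains was not analysed here.

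Chst15, which makes the disulfated chondroitin sulfate E unit (gene 77590; chr7:132235779-132323534, protein coding), was lower in R6/2 than in wild-type mice when both received PLX3397. It measured 7.30, 5.96 and 6.58 log2 CPM in wild-type PLX3397 mice and 4.41, 5.92 and 5.49 in R6/2 PLX3397 mice. It measured 6.17, 6.45 and 5.77 in wild-type vehicle mice and 4.72, 5.38 and 5.67 in R6/2 vehicle mice. Within each treatment every R6/2 mouse lay below every wild-type mouse, though R6/2 PLX3397 mouse 2 came close to wild-type PLX3397 mouse 2. The log2 difference was -1.34 ± 0.42 on PLX3397 (2.53-fold lower in R6/2; limma adjusted p = 0.0309) and -0.87 ± 0.42 on vehicle (adjusted p = 0.245). The interaction was -0.46 ± 0.59 (adjusted p = 0.596), so the differences on PLX3397 and on vehicle were not shown to be unequal. The call on PLX3397 was lost without wild-type PLX3397 mouse 1 (-0.996; adjusted p = 0.0918) or 3 (0.0613) or R6/2 PLX3397 mouse 1 (-0.91; 0.114), and it remained with the GC and length trend removed (-1.42; 0.0224).

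Marker genes of medium spiny neurons, which send the striatum's output, moved with Chst15. The summed level of 9 such genes was 4636, 5717 and 2259 CPM in wild-type vehicle mice 1 to 3 and 10150, 5263 and 7508 CPM in wild-type PLX3397 mice. It was 497, 650 and 1185 CPM in R6/2 vehicle mice and 471, 1713 and 1076 CPM in R6/2 PLX3397 mice. No marker was at 0 reads in any group, and in each of the 4 groups the mice ranked in the same order for Chst15 and for these genes. Chst11 ranked in that order too in every group except R6/2 PLX3397, and it ran together with Chst15 (Pearson's r = 0.822). How many of all genes rank this way was not counted. All 9 of these marker genes were called lower in R6/2 on PLX3397 against wild type on PLX3397, beside 17.9% of all genes. On vehicle 4 of 9 were called, all lower in R6/2, where 2.11% of all genes were called. Among the 3 genes most like Chst15 over the 12 libraries were Actn1 (Pearson's r = 0.992) and Mpped2 (0.980). The part that the number of these neurons has in the Chst15 difference was not tested.

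**Figure D3:**
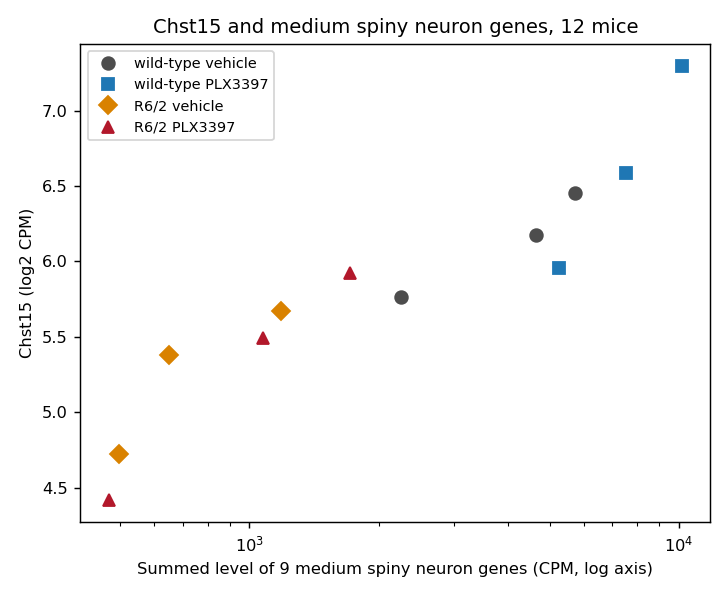
Level of Chst15 in log2 CPM (vertical axis) against the summed level of 9 medium spiny neuron genes in CPM (horizontal axis, log scale) in each of the 12 mice, with a symbol per group. The R6/2 mice lie to the lower left, from 4.41 to 5.92 log2 CPM of Chst15, and the highest point is wild-type PLX3397 mouse 1 (7.30).

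The 3 genes called for PLX3397 in wild type differed in transcript GC content. It was 63.2% for Chpf (percentile 98.9 among genes), 56.6% for Chst12 (percentile 82.4) and 39.7% for Csgalnact2 (percentile 3.94), beside a median of 50.3%. With the GC and length trend removed from each library, Csgalnact2 was at 4.18, 4.46 and 4.39 log2 CPM in wild-type vehicle mice and 4.43, 4.09 and 4.32 in wild-type PLX3397 mice, which overlapped. Chpf was at 5.94, 6.01 and 6.10 in wild-type vehicle mice and 6.49, 6.44 and 6.48 in wild-type PLX3397 mice, which did not overlap. Chst12 was at 3.83, 4.10 and 4.01 against 4.26, 4.53 and 4.58, also without overlap. Chst3, at 53.8% GC, kept a difference of -0.61 in wild type (limma adjusted p = 0.154). The median PLX3397 difference of all genes in wild type was 0.095 after trend removal. Then 1 of the 10 genes was called for PLX3397 in wild type (Chpf), beside 6.45% of all genes, and 1 between genotypes on vehicle (Chpf2), beside 6.62%. Between the genotypes on PLX3397 2 were called (Chst11 and Chst15), beside 23.4%, and between R6/2 mice on PLX3397 and wild-type vehicle mice 1 was called (Chpf2), beside 12.2%. For the interaction limma called 0, beside 2.2%, and 1 had an unadjusted p under 0.05. These shares of the 10 were near those of all genes.

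**Figure D4:**
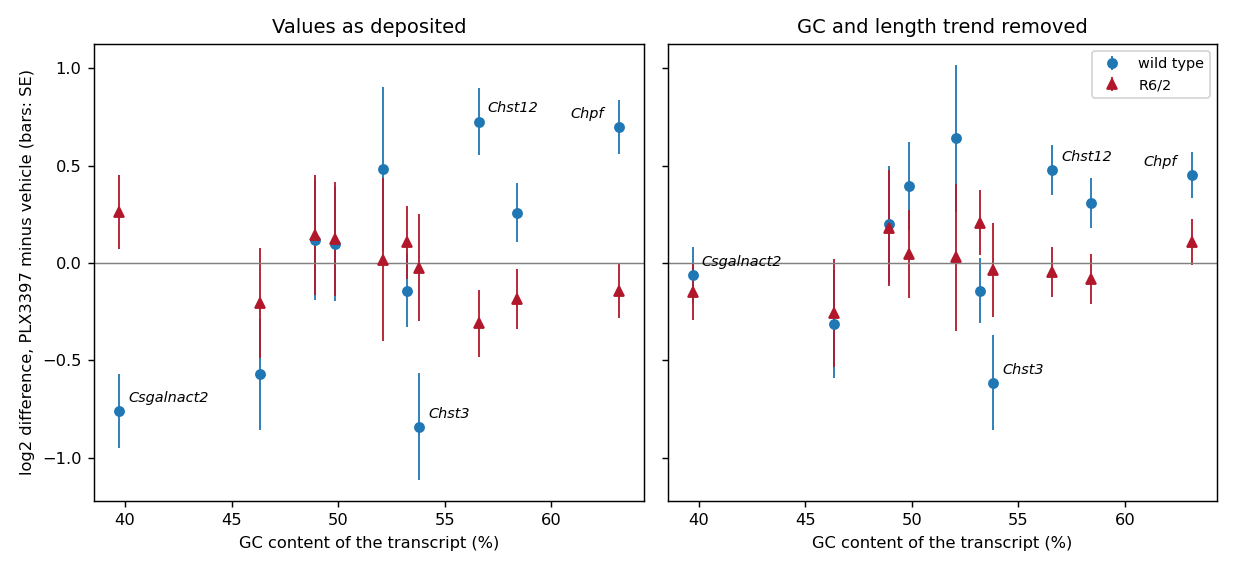
Log2 difference between PLX3397 and vehicle (vertical axis, bars show SE) against transcript GC content in percent (horizontal axis) for the 10 genes in wild type (blue circles) and R6/2 (red triangles), for the deposited values (left) and after trend removal (right). Csgalnact2 moves from -0.76 to -0.06 in wild type, Chst12 from 0.73 to 0.48, Chpf from 0.70 to 0.45 and Chst3 from -0.84 to -0.61.

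Over the 12 libraries Chpf and Csgalnact2 ran opposite to each other (Pearson's r = -0.897), and so did Chst12 and Csgalnact2 (r = -0.812). Both relations fell away with the trend removed, to r = -0.160 and -0.01. Chpf and Chst12 ran together before (r = 0.893) and after (0.732) removal, and Chst11 and Chst15 did so too (0.822 and 0.847). The genes most like Chpf were Wdr18 (r = 0.968), Bcl7b (0.967) and Fxr2 (0.966), and those most like Chst12 were Tmem115 (0.973), St3gal3 (0.972) and Sgta (0.970). The genes most like Csgalnact2 were Cdc42bpa (0.991), Pdzd8 (0.988) and Akap11 (0.984). Transcript GC content was 55.2% to 60.3% for the first 6 of these genes and 41.9% to 46.2% for the 3 like Csgalnact2. The libraries share their groups and this trend, so the correlations are descriptions over 12 points.

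Leaving out the 2 libraries highest in choroid plexus genes kept the PLX3397 calls in wild type for Chpf (0.70; limma adjusted p = 0.0127), Chst12 (0.84; 0.00993) and Csgalnact2 (-0.60; 0.0320), and added Chst3 (-1.13; 0.0159). It also added Chst3 between genotypes on PLX3397 (0.83; 0.0271). It ended the call for Chst15 between genotypes on PLX3397 (-0.996; 0.0758) and for the Csgalnact2 interaction (0.73; 0.0606). Without R6/2 PLX3397 mice 1 and 2, where 1 mouse is left in that group and its spread is assumed equal to that of the others, none of the 4 genotype differences on PLX3397 was called: Chpf was at -0.64 (0.129), Chst12 at -0.43 (0.346), Csgalnact2 at 0.51 (0.303) and Chst15 at -1.12 (0.221). The interactions were then -0.90 for Chpf (0.235), -0.89 for Chst12 (0.260) and 0.86 for Csgalnact2 (0.276). All 7 differences kept their direction.

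The other genes of the pathway, 68 measured genes in 7 lists, included falls with PLX3397 in wild type. There 10 of 68 were called and all were lower, beside 14.2% of all genes (5.93% higher, 8.3% lower). Between the genotypes on PLX3397 19 of 68 were called, beside 35%. On vehicle 0 of 68 were called between genotypes by limma, beside 2.11% of all genes, and limma-voom called 0. In that comparison 17 of 68 had an unadjusted p under 0.05, beside 3476 of all 15397 genes. In wild type the median PLX3397 difference on the log2 scale was -0.77 for the other chain enzymes, 0.15 for linkage genes, -0.10 for sulfate donor genes, 0.23 for UDP-sugar genes, -0.04 for breakdown genes, -0.19 for core proteins and -0.03 for heparan sulfate enzymes, beside 0.00 for all genes.

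Among 5 other chain enzymes of chondroitin and dermatan sulfate, 1 fell with PLX3397 in wild type, beside 8.3% of all genes called lower. It was Dse, a dermatan sulfate epimerase, which fell by 0.77 ± 0.20 (limma adjusted p = 0.0311). On PLX3397, Dse was higher in R6/2 than in wild type by 1.13 ± 0.20 (adjusted p = 0.00243) and Dsel, the related epimerase, by 1.01 ± 0.33 (0.0351). Trend removal ended the call of Dse in wild type, at -0.56 (0.115), and that of Dsel on PLX3397, at 0.16 (0.601). Of 7 genes that build the linkage region, 0 were called for PLX3397 in wild type by limma, beside 14.2% of all genes. There 2 of the 7 had an unadjusted p under 0.05 and limma-voom called 0. B4galt7, a linkage galactosyltransferase, and Fam20b, the xylose kinase of the linkage, were higher in R6/2 with both genotypes on PLX3397, by 0.46 ± 0.15 (0.0386) and 0.49 ± 0.16 (0.0387). After trend removal B4galt7 was at 0.89 (limma adjusted p = 0.00139) and Fam20b at 0.31 (0.103), which ended the Fam20b call. Of the 25 alternatives described below, these calls held in 14 for B4galt7 and in 11 for Fam20b. B4galt7 was also higher in R6/2 mice on PLX3397 than in wild-type vehicle mice, by 0.65 ± 0.15 (0.0370).

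Of 8 sulfate donor genes measured, 2 fell with PLX3397 in wild type, beside 8.3% of all genes called lower. Impad1, a Golgi phosphatase that clears the by-product of sulfation, fell by 1.65 ± 0.31 (limma adjusted p = 0.0125). The sulfate transporter Slc26a2 fell by 1.54 ± 0.31 (limma adjusted p = 0.0140). Both were higher in R6/2 with both genotypes on PLX3397, by 2.04 ± 0.31 (0.00124) and 1.80 ± 0.31 (0.00218). After trend removal the wild-type differences were -0.56 (0.331) and -0.77 (0.0663), and those between genotypes on PLX3397 were 1.01 (0.0486) and 0.99 (0.0116). Of 7 UDP-sugar genes, Ugdh, which makes UDP-glucuronic acid, fell by 0.46 ± 0.12 in wild type (0.0341). On PLX3397, Ugdh was higher in R6/2 than in wild type by 0.71 ± 0.12 (limma adjusted p = 0.00220). Uxs1, which makes UDP-xylose, was lower there, at -0.40 ± 0.14 (0.0442), and at -0.98 (0.00381) after trend removal. On PLX3397 the Ugdh call held in 24 of 25 alternatives and the Uxs1 call in 10 of 25. The Ugdh fall in wild type was not called after trend removal, at -0.30 (0.168).

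The breakdown list held 11 genes that act on chondroitin sulfate or on dermatan sulfate. Of these, Ids, the iduronate sulfatase, fell by 0.99 ± 0.21 with PLX3397 in wild type (limma adjusted p = 0.0181). Its difference after trend removal was -0.24 (0.515). Between genotypes on PLX3397, Ids (1.23 ± 0.21; 0.00237), the arylsulfatase Arsb (0.55 ± 0.18; 0.0399) and the sulfatase activator Sumf1 (0.38 ± 0.13; 0.0433) were higher in R6/2. These calls on PLX3397 held in 22 (Ids), 12 (Arsb) and 11 (Sumf1) of 25 alternatives. Hexa, a hexosaminidase subunit, was lower there at -0.41 ± 0.12 (0.0238), and at 0.047 (0.746) after trend removal, which also ended the call of Ids there, at 0.52 (0.0985).

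Of 10 core protein genes, 3 fell with PLX3397 in wild type, beside 8.3% of all genes called lower. Ptprz1, which encodes phosphacan, was at -1.66 ± 0.22 (limma adjusted p = 0.00237). Versican (Vcan) was at -1.86 ± 0.40 and aggrecan (Acan) at -0.88 ± 0.26 (limma adjusted p = 0.0172 and 0.0478). In R6/2, 0 of the 10 were called for PLX3397 by limma, beside 1.1% of all genes. There 1 of the 10 had an unadjusted p under 0.05 and limma-voom called 0. Of the 10, on PLX3397, Ptprz1 (1.27 ± 0.22; 0.00248) and Acan (1.07 ± 0.26; 0.0113) were higher in R6/2, and brevican (Bcan, -0.51 ± 0.16; 0.0280) and Cspg5 (-0.73 ± 0.15; 0.00487) were lower. The Acan call in wild type held in 6 of 24 alternatives, and limma-voom was among those that ended it. With the trend removed Vcan was at -0.84 (0.139), Acan at -0.58 (0.240) and Ptprz1 at -0.86 (0.0206) in wild type. Between genotypes on PLX3397 trend removal ended the calls of Ptprz1, at 0.44 (0.0982), and Bcan, at -0.058 (0.775), and moved Cspg5 to -1.14 (0.00758). Ptprz1 and Vcan are also expressed by oligodendrocyte precursors, whose 7 marker genes summed to 237 to 254 CPM in wild-type vehicle mice, 96.5 to 130 CPM in wild-type PLX3397 mice, 188 to 247 CPM in R6/2 vehicle mice and 177 to 225 CPM in R6/2 PLX3397 mice. Cspg4 is in both this marker list and the core protein list. The 7 astrocyte marker genes summed to 4505 to 5677 CPM in wild-type vehicle mice and 3208 to 4204 CPM in wild-type PLX3397 mice. In R6/2 they summed to 2604 to 3719 CPM on vehicle and 2557 to 3369 CPM on PLX3397. The part of either cell type in the core protein differences was not tested.

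Of 20 genes for heparan sulfate, the other chain built on the same linkage, 1 fell with PLX3397 in wild type, beside 8.3% of all genes. It was the sulfotransferase Ndst4, at -2.47 ± 0.63 (limma adjusted p = 0.0292), and limma-voom did not call it. On PLX3397, Ndst4 was higher in R6/2 than in wild type by 3.10 ± 0.63 (0.00455), and Extl1 (-1.62 ± 0.27; 0.00204) and Hs3st4 (-0.98 ± 0.28; 0.0205) were lower. After trend removal Ndst4 was at -1.32 (0.238) in wild type and 2.0 (0.0445) between genotypes on PLX3397, and Hs3st4 was at -0.62 (0.154). Ext2, a heparan sulfate polymerase, was higher in R6/2 mice on PLX3397 than in wild-type vehicle mice by 0.57 ± 0.14 (limma adjusted p = 0.0398). The Ext2 call held in 13 of 25 alternatives.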

How the data were processed

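Per the submitters' processing notes, STAR, featureCounts, edgeR and limma were used on mm10, with no versions given, and per the labels' protocols RNA was taken from frozen microdissected tissue with TruSeq libraries; whether counting used strand is not given in the sources used here. The deposited values are named RPKM, but are log2 CPM with a prior averaging 2 reads: after subtracting it, 100% of values came within 0.1 of a whole number of reads. Replicates differed (r = 0.938 to 0.986). Their number, 3 mice a group, limits the precision.

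From the values as deposited, group means of all 12 libraries were fitted by limma 3.58.1 (R 4.3.3), using its intensity-dependent prior and two-sided moderated statistics, and p was adjusted by Benjamini-Hochberg over 15397 genes, called under 0.05. The interaction is the PLX3397 difference in R6/2 minus that in wild type. The fit was tried on simulated data for PLX3397 in wild type (15397 genes, 200 changed, 3 simulations). It recovered 45.3% of log2 changes of 1 and 78.7% of changes of 2, with 8.67 false calls on average. The simulated noise was independent between genes and held no trend with GC content. These figures therefore do not describe errors where genes share such a trend.

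Gene positions are from RefSeq (GRCm38.p6; 15078 genes matched), and transcript length and GC content from the longest protein-coding transcript in GENCODE M21 (14305 genes, 92.9%). Levels per kilobase use the length of all exons of a gene in the GENCODE M21 basic annotation, overlaps counted once. The trend was removed per library with splines of GC content and log2 length, 5 degrees of freedom each, and those fits test only the genes with both values. The plan had been to take logs of linear values; they were already logs. All 10 genes are named; of the pathway lists, up to 4 called genes a list and comparison with the smallest p; and for each called member the 3 genes with the highest r over the 12 libraries among genes at a mean of at least 1 log2 CPM. The members and lists were chosen with earlier results of these data known. Some results that the naming rule would include are not reported here. Alternatives were leaving out each mouse, other scaling, filters, pseudocounts, no trend, limma-voom on recovered reads, a replicate block, fits of 6 libraries, trend removal and leaving out libraries that stand apart; trend removal together with the block was chosen after seeing the data. Python 3.11.15, numpy 2.4.6, pandas 2.3.3 and matplotlib 3.10.9 made the tables and plots.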

Additional observations from a re-analysis of the deposited data

Results flagged for a closer look

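The change with PLX3397 differed between the genotypes, by limma's interaction test with Benjamini-Hochberg adjustment over all 15397 genes, for 3 of the 10 enzyme genes. The change in R6/2 minus that in wild type was -0.84 for Chpf, -1.04 for Chst12 and 1.02 for Csgalnact2 on the log2 scale, with the errors and adjusted p given above. In each case the change passed its own test in wild type and not in R6/2. With the GC and length trend removed none of the 3 was called: Chpf was at -0.34, Chst12 at -0.52, and Csgalnact2 turned to -0.085 (limma adjusted p = 0.838).

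The same test was passed by 12 of 68 other pathway genes, where 17% of all genes passed. Among genes of the sulfate and sugar supply the interaction was 2.38 for Impad1, 1.84 for Slc26a2, 0.63 for Ugdh and -0.73 for Uap1, which makes UDP-N-acetylglucosamine. Among chain and core protein genes it was 1.67 for Dsel, 2.30 for Vcan and 2.23 for Ptprz1. Among breakdown genes it was 1.14 for Ids and -0.76 for Hexa. Among heparan sulfate enzymes it was 5.26 for Ndst4, 1.67 for the sulfotransferase Hs6st2 and -1.37 for Extl1. The calls held in as few as 8 of 24 alternatives for Uap1 and 10 of 24 for Hs6st2, and in 21 of 24 for Impad1 and Ptprz1. After trend removal none of these 12 kept a limma adjusted p under 0.05. The values were then 0.030 for Ids, 0.32 for Dsel, 0.65 for Impad1, 0.73 for Slc26a2, 0.79 for Vcan, 1.09 for Ptprz1, -0.24 for Hexa and 3.44 for Ndst4. For Ugdh (0.48), Uap1 (-0.68), Extl1 (-1.08) and Hs6st2 (1.16) they moved by less than 1.5 times. The cause was not tested.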

How the results depend on the processing

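Of 60 results for the 10 genes, 10 were called; 44 of the other 50 were called in none of up to 25 alternatives (24 for the interaction), and 19 of the 50 changed sign in some. Chst3 drops out under the filter of a mean of 3 log2 CPM. Genes at low counts, such as Chst3 at 63 reads, are the least precise. The removal of the GC and length trend moved the median of all genes from about 0 to 0.10 between genotypes on vehicle, 0.095 for PLX3397 in wild type and 0.13 between R6/2 mice on PLX3397 and wild-type vehicle mice. In what follows, counts of all genes are followed by counts of the 10.

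For R6/2 against wild type on vehicle (325 genes, 95 higher and 230 lower; 0) the counts were 206 at a mean of 3, 145 with limma-voom, 40 with the replicate block, 947 (549 higher, 398 lower; 1 of the 10) with the trend removed, 168 with trend and block, 103 without the 2 choroid plexus libraries, and 1 to 561 (0 to 1) leaving out 1 mouse. For PLX3397 in wild type (2191, 913 higher and 1278 lower; 3) they were 1110 with the block, 351 (0) in the fit of 6 libraries, 922 (653 higher, 269 lower; 1) with the trend removed, 388 (0) with trend and block, 3560 without the choroid plexus libraries, 1317 without R6/2 PLX3397 mice 1 and 2, and 228 to 2716 (0 to 3) leaving out 1 mouse. For PLX3397 in R6/2 (169; 0) they were 53 and 6 at a mean of 1 and 3, 98 in 6 libraries, 58 without R6/2 PLX3397 mice 1 and 2, and 125 to 381 (0 to 0). For the genotypes on PLX3397 (5389; 4) they were 2934 (1) in 6 libraries, 3352 (2) with the trend removed, 2690 (1) with trend and block, 237 (0) without R6/2 PLX3397 mice 1 and 2, 2 of the 10 with the block alone, and 3383 to 5630 (2 to 4). For R6/2 PLX3397 mice against wild-type vehicle mice (702, 143 higher and 559 lower; 0) they were 455 and 296 at a mean of 1 and 3, 409 with the block, 1739 (1084 higher, 655 lower; 1) with the trend removed, 1 of the 10 with trend and block, 1123 without the choroid plexus libraries, 91 without R6/2 PLX3397 mice 1 and 2, and 246 to 931 (0 to 0). For the interaction (2617, 1430 higher and 1187 lower; 3) they were 1432 with the block, 315 (82 higher, 233 lower; 0) with the trend removed, 0 (0) with trend and block, where 2661 genes had an unadjusted p under 0.05, 0 (0) without R6/2 PLX3397 mice 1 and 2, where 2599 did, and 537 to 3532 (0 to 4). The Csgalnact2 interaction turned to -0.085, and Hexa between genotypes on PLX3397 to 0.047, with the trend removed, with or without the block; the causes were not tested.

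The replicate block ended the calls of Chst12 for PLX3397 in wild type (limma adjusted p = 0.0540) and of Chst12 (0.0517) and Chst15 (0.0518) between genotypes on PLX3397. Same-numbered mice share only a number: their deviations from the group means correlated at -0.41 to 0.42 (median -0.06 over 18 pairs, 4 above 0.1; median 0.07 over 36 other pairs), so no pairing is used. The fit of 6 libraries ended the calls of Chpf (0.0537), Chst12 (0.0765) and Csgalnact2 (0.0869) for PLX3397 in wild type and of Chst12 (0.0606), Chst15 (0.0788) and Csgalnact2 (0.0658) between genotypes on PLX3397.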
